A study of Mus musculus with 4 samples.

Results

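Apoe Scin Slc45a3 progenitors were taken as the barcodes of 4 droplet single-cell RNA libraries that passed limits of at least 1000 detected genes and at most 10% of unique molecular identifiers (UMIs, each counting 1 captured RNA molecule) on mitochondrial genes, and in which at least 4 of the 5 genes Apoe, Scin, Slc45a3, Trib2 and St8sia6 had a UMI. Of 16261 barcodes that passed the limits, 2859 met this rule and are called members. Control bone marrow (CBM) held 230 members among 3497 passing barcodes, tumor-bearing bone marrow (TBM) 113 among 4340, control spleen (CS) 1272 among 3236, and tumor-bearing spleen (TS) 1244 among 5188. Members were therefore found in mice with and without tumors, and the working name "of control mice" did not describe them. Since the 5 genes chose the members, their levels within members are given as a description, and the same holds for every other contrast of members with barcodes outside the rule. The 5 genes were themselves chosen with earlier results of these data known, so their differences between libraries are a description too.

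The mice were of strain C57BL/6J, 8 to 16 weeks old and, per the methods, female. Tumor-bearing mice carried a transplant of PyMT-B6, a line from mammary tumors of mice with a polyoma middle T transgene, which the methods harvest at 21 days, and the control mice carried none. Spleen and marrow were digested with collagenase and DNase, cells with lineage markers were depleted, and the remaining live cells were sorted into CD45+ c-Kit+ gates with and without Sca-1 and into CD45- gates by CD31 and CD51. The sorted gates were combined at equal ratios before library preparation, so a share of barcodes is a share of this mixture and not of the tissue, and the sort can set it. Each group was 1 library, and the number of mice behind it is not given in the sources used here, so no test between groups was possible, and every interval is a 95% interval for counting error only.

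Red cells, mast cells, basophils and megakaryocytes descend from c-Kit+ progenitors that derive from stem cells. On the path to red cells the transcription factor Gata2 gives way to Gata1 and its partner Klf1. Early erythroid progenitors switch on carbonic anhydrase genes and the erythropoietin receptor before they make hemoglobin, and in mice the spleen is a site of red cell formation beside the marrow. Mast cells and basophils keep Gata2 and make granule proteases.

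Members made up a larger share of the passing barcodes in spleen than in marrow, and, at the limit of 1000 genes, a smaller share in each tumor-bearing library than in the control library of the same tissue. CBM had a share of 6.58% (exact binomial 95% interval 5.78 to 7.45) and TBM one of 2.60% (2.15 to 3.12), while CS had 39.3% (37.6 to 41.0) and TS had 24.0% (22.8 to 25.2). None of the 4 intervals overlapped. With the limit lowered to 350 genes, the limit of the study's methods, the spleen order turned, to 17.7% (16.8 to 18.6) in CS and 18.4% (17.5 to 19.3) in TS, while CBM stayed above TBM at 4.02% against 0.986%. Depth moved with these shares, since the median UMIs of members, for CBM, TBM, CS, and TS, were 12565.5, 10460.0, 32686.5, and 24576.5, against 13947, 14708, 21936.5, and 27704.5 UMIs in the other passing barcodes. Thinned to 5000 UMIs, which left out shallower barcodes and kept 2866, 3592, 2932, and 4976, the shares were 2.62%, 1.11%, 7.33%, and 4.52%, so their order was kept at lower values. Whether library handling moved the shares cannot be told apart from group with 1 library each.

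**Figure D1:**
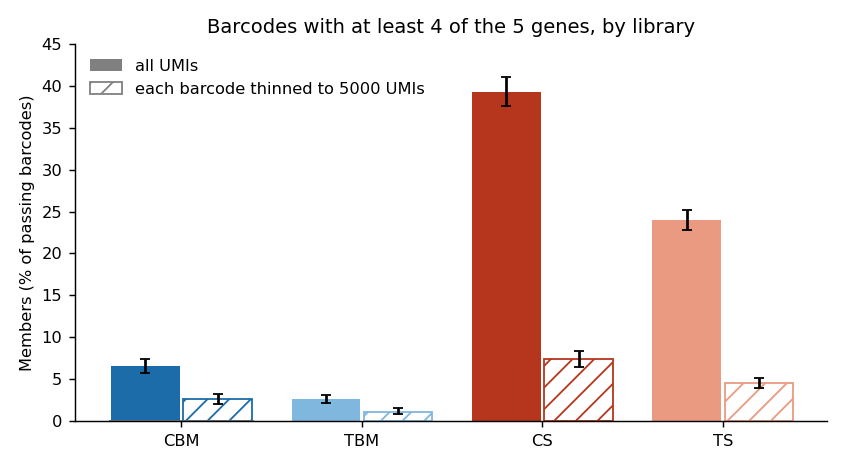
Share of passing barcodes that were members in each library (percent, vertical axis), at full depth and after thinning to 5000 UMIs without shallower barcodes; each bar is 1 library and each whisker the exact binomial 95% interval. The share at full depth runs from 2.60% in TBM to 39.3% in CS, and the order of the libraries is the same after thinning.

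The rule has a threshold, and many barcodes lay on either side of it. In the order CBM, TBM, CS, and TS, all 5 genes were detected in 86, 28, 600, and 378 members, and exactly 4 in 144, 85, 672, and 866. Just outside the rule lay 156, 131, 397, and 973 passing barcodes with 3 of the genes. The median summed UMIs of the 5 genes for barcodes with 3, 4, and 5 of them were 31, 34, and 38.5 for CBM, 13, 15, and 21.5 for TBM, 31, 42, and 51 for CS, then 10, 15, and 18 for TS. Most of this sum was Apoe, and the rule used all 5 genes, so nothing is read from it. No member lay within 100 genes above the lower limit on genes. Of barcodes within 100 genes under it, 1 in CBM had 4 of the 5 genes, and of those within 1 percentage point over the mitochondrial limit, 1 in TBM and 1 in CS.

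The 5 genes have different functions. Apoe, at chr7:19696109-19699188 on the minus strand of GRCm38 (GENCODE vM21), encodes the lipid carrier apolipoprotein E. Scin, at chr12:40059769-40134228 on the minus strand, encodes scinderin, a protein of the gelsolin family that severs actin filaments. Slc45a3, at chr1:131962967-131982969 on the plus strand, encodes a sugar transporter of the solute carrier class, Trib2, at chr12:15791727-15816922 on the minus strand, a Tribbles pseudokinase, and St8sia6, at chr2:13651021-13794064 on the minus strand, a sialyltransferase. Apoe had a UMI in 98.2% to 99.8% of members of each library, and Trib2 was the gene missing most often from members with 4 genes in TBM, CS, and TS, in 40, 272, and 430 of them, while in CBM it was Scin, in 52. Apoe was missing in 2, 2, 2, and 12 members of CBM, TBM, CS, and TS. Outside the members Apoe also had a UMI in 52.4%, 45.2%, 67.3%, and 63.8% of passing barcodes, so that the rule rested mainly on the other 4 genes.

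The 250 bases before the start of Scin are shown because the GATA factors named here recognise a short word found in this window. In RefSeq on GRCm38.p6 the window is chr12:40134229-40134478 on the minus strand, printed 5′ to 3′ along the gene with the word in capitals, which is AGATAG read on the opposite strand with its first base at position -164 from the start.
Scin: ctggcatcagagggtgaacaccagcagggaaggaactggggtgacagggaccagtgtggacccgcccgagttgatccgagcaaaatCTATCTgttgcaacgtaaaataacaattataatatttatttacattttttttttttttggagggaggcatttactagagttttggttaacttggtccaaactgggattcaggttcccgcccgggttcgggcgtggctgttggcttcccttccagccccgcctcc
The words searched were GATAA and GATAG, each with an A or a T before it, on both strands. Such a word occurred in 26.5% of 32851 promoter windows of this length. The windows at the first listed starts of Apoe, Slc45a3, Trib2, and St8sia6 held none of these letters, while 1 match each lay before the third listed start of Apoe (AGATAG at position -29) and before the second of Slc45a3 (TTATCA at position -227, on the opposite strand). The match in Scin is a description of the sequence.

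Apoe had the most UMIs of the 5 genes in members and differed most among the libraries. Levels are counts per 1000000 UMIs (CPM), summed over all members of a library. CBM members held Apoe at 2086 CPM (exact Poisson 95% interval 2038 to 2135) and TBM members at 762 CPM (719 to 807), CS members held it at 967 CPM (958 to 976), and TS members at 344 CPM (338 to 351). The median member held 26, 9, 33, and 8 UMIs of Apoe. Apoe was thus lower in both tumor-bearing libraries, by log2 ratios of -1.45 (-1.54 to -1.36) in marrow and -1.49 (-1.52 to -1.46) in spleen. Free RNA, summed over barcodes with at most 100 UMIs, held Apoe at 395, 219.7, 718, and 236 CPM. If 10% of the UMIs of the median member were free RNA, 0.497, 0.230, 2.35, and 0.581 Apoe UMIs would come from it.

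The other 4 genes differed less between control and tumor-bearing members. Scin was at 192, 192, 157, and 118 CPM in CBM, TBM, CS, and TS, with a log2 ratio of TBM over CBM whose interval held 0 (-0.21 to 0.20) and -0.41 (-0.47 to -0.35) for TS over CS. Slc45a3 was at 123, 108, 67.3, and 68.7 CPM in the same order. Trib2 was at 160.0, 82.4, 57.4, and 42.4 CPM, lower in both tumor-bearing libraries by log2 ratios of -0.96 (-1.25 to -0.67) in marrow and -0.44 (-0.53 to -0.34) in spleen. St8sia6 was at 163, 220.5, 63.0, and 78.1 CPM, the only gene of the rule that was higher in both tumor-bearing libraries, with log2 ratios of 0.43 and 0.31. In free RNA, Scin, Slc45a3, Trib2, and St8sia6 did not exceed 51.5, 29.8, 19.5, and 20.8 CPM in any library, and at 10% free RNA at most 0.168 UMIs of any of them would be drawn by the median member. In basophil-like barcodes outside the members, with at least 2 of Mcpt8, Prss34, and Cd200r3, Trib2 had no UMI in CBM, CS, and TS and was at 0.763 CPM in TBM, so almost none was counted there.

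Outside the members, genes of the rule were also counted in mast-like and early erythroid-like barcodes, which met the mast or the early erythroid definition given with the lineage genes. Apoe was at 1213, 456, 856, and 906 CPM in mast-like barcodes of CBM, TBM, CS, and TS, above the level in members of TS. Scin was at 109, 22.1, 494, and 96.2 CPM there, above the level in members of CS, and Trib2 at 2.80, 6.14, 14.9, and 0 CPM. In early erythroid-like barcodes Trib2 was at 67.9, 17.6, 21.8, and 16.9 CPM and Scin at 20.1, 17.2, 23.9, and 10.6 CPM. In stem-like barcodes Scin, Slc45a3, Trib2, and St8sia6 did not exceed 12.6 CPM, 10.3 CPM, 5.75 CPM, and 8.15 CPM.

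**Figure D2:**
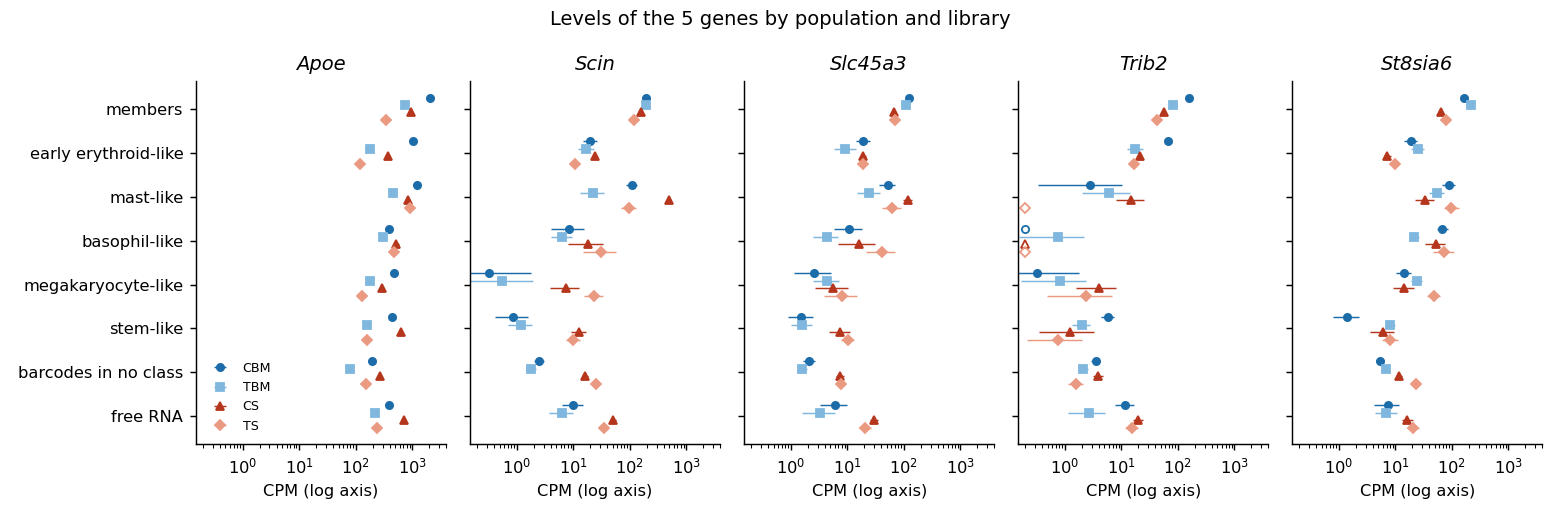
Level of Apoe, Scin, Slc45a3, Trib2, and St8sia6 (CPM, log axis) in members, in comparison classes of other passing barcodes, and in free RNA, for each library; points are single libraries, bars the exact Poisson 95% interval, and hollow marks at the edge 0 UMIs. Apoe lies highest of the 5 genes in members, from 344 CPM in TS to 2086 CPM in CBM.

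Early erythroid genes were counted in members together with c-Kit and almost without hemoglobin. Kit, the stem cell factor receptor on which the cells were sorted, had a UMI in 96.5%, 95.6%, 99.0%, and 95.7% of members of CBM, TBM, CS, and TS, at 312, 303, 187, and 199 CPM. Gata1 was at 94.2, 80.5, 84.3, and 72.5 CPM, and Klf1, the erythroid Krüppel-like factor, at 92.7, 66.1, 123, and 95.5 CPM. Car1, a carbonic anhydrase of early erythroid cells, was at 853, 809, 2344, and 2535 CPM, in 84.3%, 67.3%, 96.6%, and 96.3% of members. The Car1 level was higher in members of both spleen libraries than in those of either marrow library, and free RNA held Car1 at 89.8 and 79.9 CPM in marrow and at 1940.0 and 1960.4 CPM in spleen. Stem-like barcodes outside the members met a definition from stem cell genes and no other definition. Barcodes that also met the early erythroid definition, which used Car1, were thus left out of them. In stem-like barcodes Car1 was at 4.20, 3.38, 54.3, and 52.8 CPM, in 3.49%, 4.18%, 69.3%, and 53.1% of them, at median depths of 14325, 14482.5, 19476, and 15983.5 UMIs. Many stem-like barcodes of spleen thus had Car1 too, and the part of free RNA in the share of spleen members with Car1 was not tested. The Car1 level of members was above that of stem-like barcodes in each library, which the filter on that class can partly set. The erythropoietin receptor gene Epor was at 30.5, 30.8, 45.9, and 52.6 CPM.

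Hemoglobin genes were low in members. The median share of UMIs on the 4 hemoglobin genes was 0.0112%, 0.0272%, 0.00698%, and 0.00389% of a member's UMIs in CBM, TBM, CS, and TS. Hbb-bs, an adult beta globin gene, was at 68.7, 178, 186, and 21.5 CPM in members against 4722, 5911, 3641, and 1366 CPM in free RNA. A single CS member had over 5% hemoglobin UMIs, and without it Hbb-bs was at 35.1 CPM in members of CS.

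Gata2 had a UMI in 99.1%, 98.2%, 87.0%, and 62.5% of members of CBM, TBM, CS, and TS, and at 2000 UMIs per barcode in 69.1%, 70.5%, 27.8%, and 16.9%. The Gata2 level was 617 and 519 CPM in marrow members (CBM, TBM) but 126 and 66.6 CPM in spleen members (CS, TS). Klf1 at the same thinned depth was detected in 21.7%, 9.82%, 18.9%, and 14.6% of members. Gata2 was thus lower in spleen than in marrow members at full and at equal depth.

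The members were not uniform, and definitions from other genes than the 5 divided them. The early erythroid definition asked for at least 2 UMIs in each of at least 3 of Klf1, Epor, Car1, Car2, Ermap, and Aqp1, and at most 5% hemoglobin UMIs. In marrow 129 CBM members (56.1%, 49.4 to 62.6) and 35 TBM members (31.0%, 22.6 to 40.4) met it, and in spleen 1028 CS members (80.8%, 78.5 to 82.9) and 941 TS members (75.6%, 73.2 to 78.0). Among other passing barcodes the same definition was met by 4.13%, 2.20%, 26.8%, and 51.3%. The mast definition, at least 3 of Cpa3, Gzmb, Cma1, Tpsb2, Il1rl1, Ms4a2, and Fcer1a with 2 UMIs, was met by 24, 12, 43, and 18 members, or 10.4%, 10.6%, 3.38%, and 1.45%. Both definitions were met together by 3, 1, 12, and 4 members. The stem definition, at least 2 of Hlf, Mecom, Procr, Fgd5, Meis1, and Hoxa9, was met by 16, 13, 70, and 25 members, the megakaryocyte definition, at least 3 of Pf4, Itga2b, Gp1bb, Gp9, Gp6, Vwf, and Ppbp, by 3, 4, 9, and 4, and the basophil definition by 1, 2, 5, and 3. No definition was met by 73, 56, 187, and 276 members, 31.7%, 49.6%, 14.7%, and 22.2% of them. Each definition asked for at least 2 UMIs per marker, so depth enters these shares. Median depth was 13803, 12108, 38231, and 29232 UMIs in members that met the early erythroid definition without the mast one. It was 10965, 9465.5, 15166, and 9552 UMIs in members that met none. Free RNA also held more of the marker Car1 in spleen than in marrow. The part of depth and free RNA in these shares was not tested.

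Groups of members differed in level of the genes that other definitions used and of genes outside all of them. The early erythroid group met that definition without the mast one, and the mast group met the mast definition without the early erythroid one. Neither group left out members that also met the stem, megakaryocyte, or basophil definition. The early erythroid group, of 126, 34, 1016, and 937 members in CBM, TBM, CS, and TS, held Gata2 at 541, 364, 94.0, and 37.5 CPM, the mast group, of 21, 11, 31, and 14, at 868, 982, 739.8, and 551 CPM, and the group of no definition at 709, 644, 393, and 294 CPM. Scin, one of the 5 genes, was at 117, 140.0, 127, and 84.7 CPM in the early erythroid group and at 674, 269.7, 935, and 459 CPM in the mast group. Both genes were higher in the mast group than in the early erythroid group in each library. Car1, which the definition used, was at 78.3, 172, 86.6, and 135 CPM in the mast group, and it was at 479, 365, 509.7, and 709.8 CPM in the group that met no definition. Gzmb, a granule serine protease, was at 119, 71.5, 139.5, and 130.1 CPM in the group of no definition and at 1.99, 12.1, 15.7, and 10.98 CPM in the early erythroid group. Members of the mast group also carried Mcpt8, a basophil protease, at 382, 1153, 741, and 638 CPM, and Prss34 at 849, 2356, 89.98, and 454 CPM. The mast group had under 35 members in every library, so these levels rest on few barcodes.

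**Figure D3:**
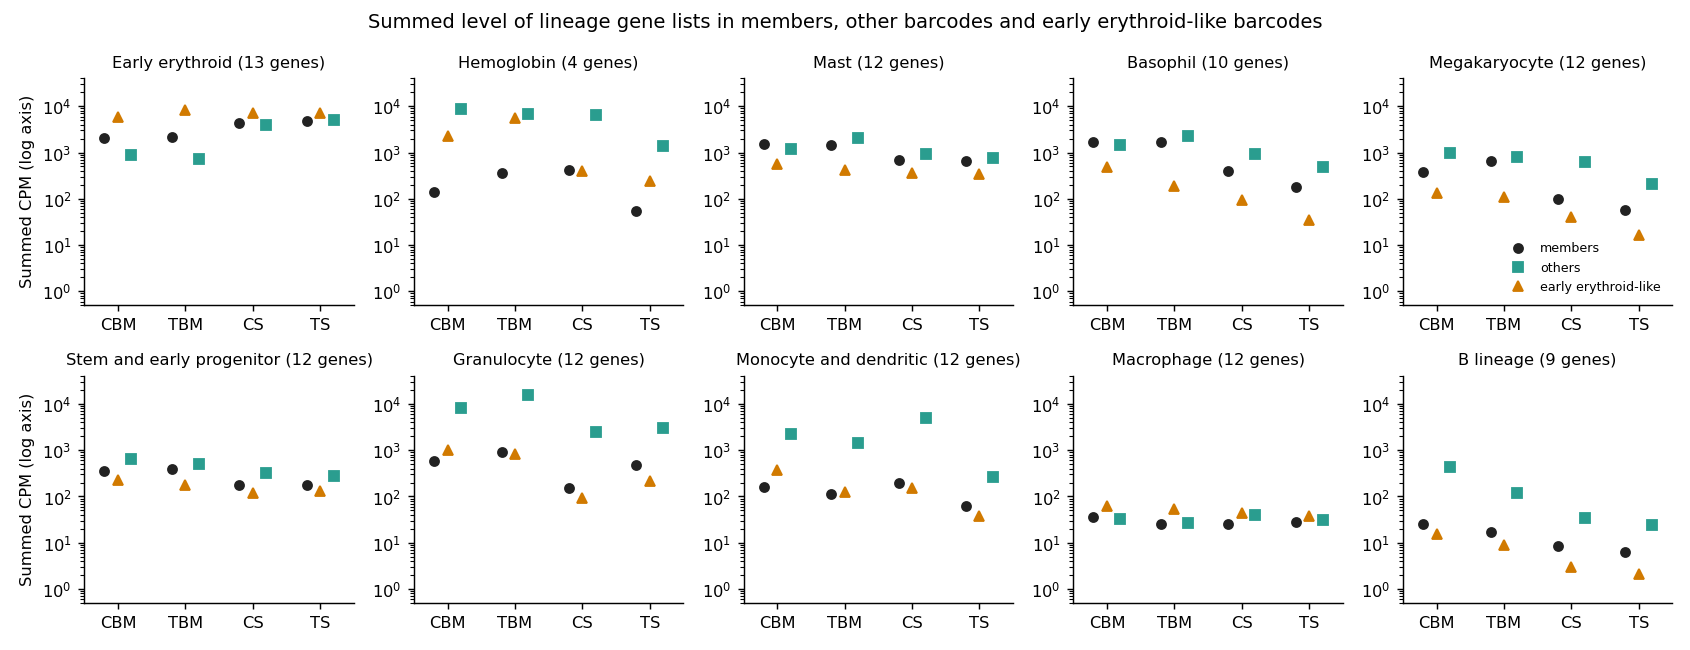
Summed level of the lineage gene lists (CPM, log axis) in members, in the other passing barcodes, and in those other barcodes that met the early erythroid definition alone; each point is 1 library. The summed granulocyte, monocyte and hemoglobin lists lie lower in members than in the others in all 4 libraries, while the median hemoglobin level per barcode in TBM was 272 CPM in members and 231 CPM in the others.

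Granulocyte and monocyte genes were lower in members than in the other passing barcodes of the same library. Of 13922, 13173, 15601, and 15314 genes compared in CBM, TBM, CS, and TS, 9.39%, 15.3%, 2.31%, and 2.4% were at least 2-fold higher in members and 12.4%, 10.1%, 19.6%, and 12.5% at least 2-fold lower. Since the members were chosen within this contrast, nothing is read from these shares. Of 12 genes of granulocyte-monocyte progenitors and neutrophils, 12 of 12, 12 of 12, 11 of 11, and 12 of 12 of those compared were lower, with median log2 ratios of -3.41, -4.56, -3.84, and -2.65, beside medians over all genes of 0.05, 0.13, -0.06, and -0.06. The monocyte and dendritic list had medians of -3.53, -3.88, -4.59, and -3.08, the B-lineage list of -4.34, -2.33, -3.58, and -2.10, and the hemoglobin list of -5.87, -4.25, -4.06 (-6.32 without the CS member of over 5% hemoglobin UMIs), and -4.73. By the median per barcode the gap was smaller. The hemoglobin list had medians of 112, 272, 69.8, and 38.8 CPM per member against 123, 231, 121, and 44.4 CPM per other barcode, so TBM members were not lower by this measure. The granulocyte list had medians of 471, 763, 49.1, and 82.7 CPM per member against 1557, 3359, 114, and 124 CPM, and the monocyte and dendritic list of 103, 97.2, 74.7, and 31.8 CPM against 547, 362, 247, and 42.5 CPM. The T, NK and innate lymphoid list had medians of -0.34, 0.34, -4.12, and -2.14. The early erythroid list had 7 of 13 genes at least 2-fold higher in CBM and 8 of 13 in TBM, but none in CS or TS, where the medians were 0.13 and -0.11, and 3, 1, 3, and 3 of the 13 were at least 2-fold lower in CBM, TBM, CS, and TS. The other barcodes of the spleen libraries held many that met the early erythroid definition. Per barcode, the early erythroid list had medians of 1790, 1152, 2860, and 3860 CPM in members against 216, 241, 618, and 3473 CPM in the others. By this measure members were higher in each library, and least so in TS.

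Granulocyte genes were low in members, and macrophage and basophil genes varied with the measure. Mpo, the granule peroxidase of granulocyte progenitors, was at 184, 229.7, 40.9, and 90.9 CPM in members of CBM, TBM, CS, and TS against 3071, 2872, 549, and 545 CPM in free RNA. The 12 macrophage genes summed to 35.2, 25.5, 25.5, and 28.3 CPM in members, with 1, 8, 4, and 4 of them at 0, and the complement gene C1qa, which defines tissue macrophages, was at 2.35, 0, 0.125, and 0.0306 CPM. In the other barcodes of CBM the list summed to 32.8 CPM. Over the others it had median log2 ratios of -0.41, 0.32, -3.33, and -1.95. A UMI of the list was found in 31.7%, 19.5%, 45.3%, and 41.6% of members against 23.3%, 25.6%, 33.3%, and 40.6% of the others. Apoe is also expressed by macrophages, and the part of such RNA in the Apoe level was not tested. The basophil list had a median per member of 815, 912, 79.7, and 27.3 CPM, against 259, 595, 104, and 38.04 CPM in the other passing barcodes. Gene by gene, 6, 7, 9, and 9 of its 10 genes were at least 2-fold lower in members than in the others, with median log2 ratios of -1.85, -1.89, -3.12, and -2.48. The T, NK and innate lymphoid list had medians of 248, 277, 208, and 70.3 CPM per member against 158, 222, 68.1, and 39.3 CPM.

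By a rule that ranked genes on the ratio nearest 0 over CBM and CS, 15 genes were named as highest in members over other barcodes. Among them were the transcription factors Sox4, Hes1, a Notch target, and Myb, which maintains progenitors. Sox4 was at 518, 571, 253, and 253 CPM in members of CBM, TBM, CS, and TS, with log2 ratios over the others of 1.34, 2.19, 1.06, and 0.86. Hes1 was at 36.4, 65.4, 169.9, and 163 CPM with log2 ratios of 3.20, 4.04, 1.44, and 1.27, so its level was higher in spleen and its ratio higher in marrow. Myb was at 1006, 809, 899.8, and 624 CPM with log2 ratios of 1.30, 1.09, 0.96, and 0.51.

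Receptor and transporter genes were among the others of the 15. Clec4d, a C-type lectin receptor, had log2 ratios of 3.07, 2.59, 1.68, and 1.27, and F2r, a thrombin receptor, of 2.23, 2.09, 1.12, and 1.16. Slc22a3, an organic cation transporter, had log2 ratios of 2.57, 2.40, 1.25, and 0.82, Spns2, an exporter of sphingosine phosphate, of 1.38, 1.37, 1.10, and 0.71, and Muc13, a transmembrane mucin, of 1.52, 1.20, 1.16, and 0.81. Optn, the autophagy receptor optineurin, had log2 ratios of 3.24, 3.37, 1.24, and 0.66. All of these were above 0 in each library and lowest in a spleen library. The noncoding gene Gm15915 had log2 ratios of 4.19, 4.67, 1.67, and 1.12, Gnb4, a G protein beta subunit, of 2.72, 2.89, 1.08, and 0.90, and Tnik, a kinase, of 2.11, 2.00, 1.01, and 0.97. Pitpnc1, a phosphatidylinositol transfer protein, had 1.82, 1.96, 0.98, and 0.79, Por, the reductase of microsomal cytochromes, 1.70, 1.70, 1.13, and 0.65, and Dnah8, a dynein heavy chain, 1.87, 1.64, 1.30, and 1.02.

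The 10 genes named as lowest included granule proteases and chemokines. Elane, neutrophil elastase, had log2 ratios of -4.90, -4.75, -4.62, and -2.57, and Prtn3, a related granule protease, of -4.05, -4.37, -4.03, and -2.81. Ly6c2, a monocyte surface antigen, had log2 ratios of -4.91, -4.61, -4.88, and -3.08, and Lgals3, galectin-3, of -4.83, -4.16, -4.71, and -2.74. Lower by the same rule were the protease inhibitor gene Slpi, with log2 ratios of -5.03, -4.94, -4.28, and -3.26, and the calcium-binding protein gene S100a6, with -4.11, -3.99, -4.90, and -3.87. The chemokine gene Ccl6 had -4.65, -3.57, -4.64, and -5.61, Ccl3 -4.71, -3.21, -4.07, and -4.52, Ccl4 -3.99, -2.72, -3.89, and -2.68, and the clotting factor gene F13a1 -4.24, -4.43, -4.02, and -3.77. For 8 of these 10 genes the ratio was nearest 0 in TS.

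**Figure D4:**
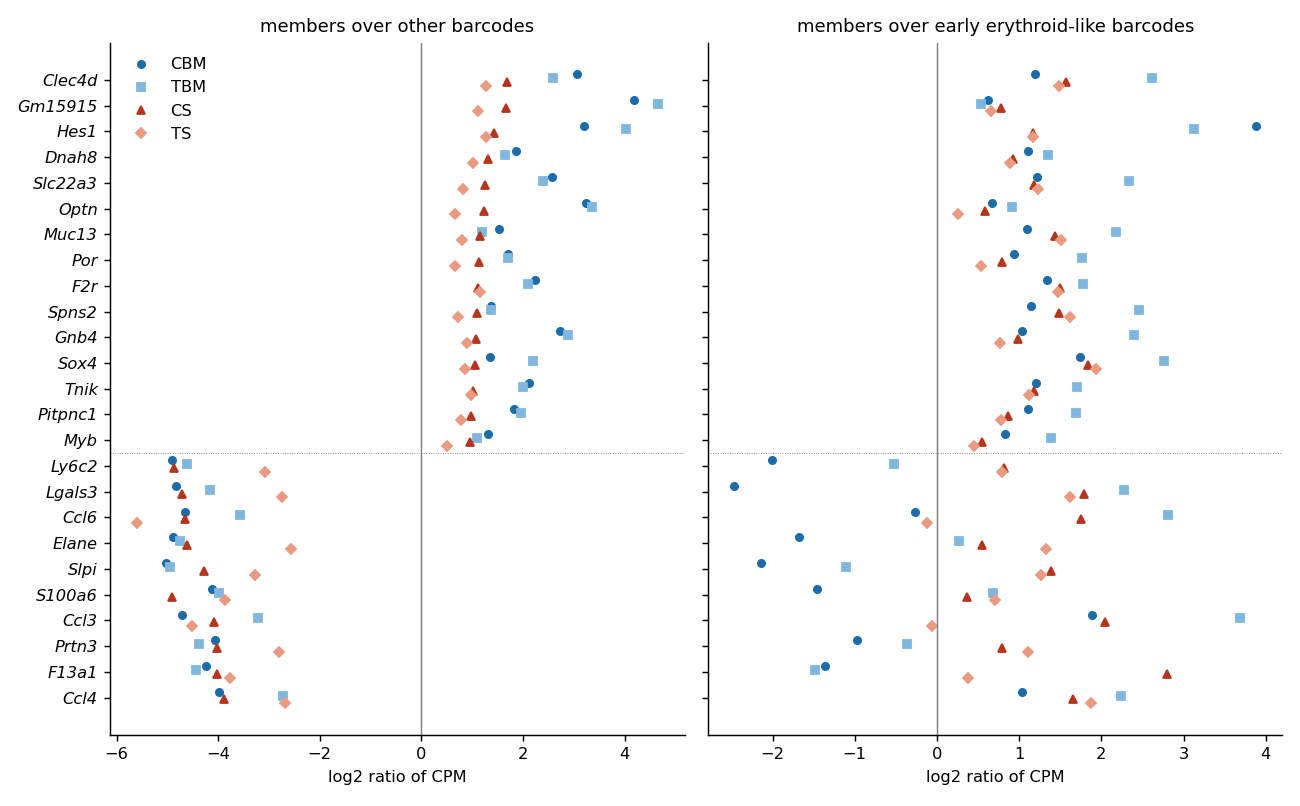
Log2 ratio of members over other passing barcodes (left panel) and over early erythroid-like barcodes (right panel), on the horizontal axis, for the 15 genes named as highest and the 10 named as lowest, 1 point for each library. In the left panel all 25 genes lie on the same side of 0 in the 4 libraries, which the choice of genes set for CBM and CS.

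The barcodes that met the early erythroid definition alone without being members, 119, 76, 485, and 2009 in CBM, TBM, CS, and TS, are called early erythroid-like. Against these, members had higher Gata2 and lower levels of early erythroid genes. Of the genes compared, 12.6%, 21.3%, 14.0%, and 13.4% were at least 2-fold higher in members and 5.44%, 8.83%, 2.33%, and 2.32% lower, with medians over all genes of 0.15, 0.19, 0.14, and 0.10. All 4 hemoglobin genes were at least 2-fold lower in members in CBM, TBM, and TS, and none in CS, with medians of -4.14, -4.03, 0.12, and -2.10 for CBM, TBM, CS, and TS. Without the 1 CS member of over 5% hemoglobin UMIs, all 4 were lower in CS too, with a median of -2.37. Gata2 was higher by log2 ratios of 1.72 (1.58 to 1.86), 2.59 (2.37 to 2.83), 1.66 (1.57 to 1.76), and 1.77 (1.67 to 1.87). Gata1 lay at -0.15, -0.45, -0.27, and -0.24, a smaller difference in the opposite direction. Of the 13 early erythroid genes, 10, 12, 4, and 4 were at least 2-fold lower in members and none was 2-fold higher, with medians of -2.21, -1.83, -0.73, and -0.60. The class was defined by 6 of those 13 genes, which some members lacked, so a lower level of these was partly set by the definition.

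The difference held between barcodes that all met the same definition. Within members of the early erythroid group, Car2, a second carbonic anhydrase, was at 544, 562, 664, and 598 CPM in CBM, TBM, CS, and TS, and in early erythroid-like barcodes outside the rule at 1989, 2424, 1646, and 1254 CPM. Genes that the definition did not use separated them further. Rhd, a blood group antigen, was at 3.48, 3.45, 25.4, and 26.7 CPM in these members against 133, 204, 99.9, and 88.0 CPM, and Cldn13, an erythroid claudin, at 0.498, 1.72, 7.37, and 10.2 CPM against 125, 191, 56.6, and 45.2 CPM. In the other direction, Gata2 was at 541, 364, 94.0, and 37.5 CPM against 187, 86.0, 39.8, and 19.5 CPM. Kit was at 310.0, 307, 175, and 189.8 CPM against 178, 122, 154, and 164 CPM, Ikzf2, a transcription factor of the Ikaros family, at 137, 129, 33.7, and 28.8 CPM against 59.1, 21.6, 11.3, and 10.5 CPM, and Meis1, a stem cell homeobox factor, at 88.6, 88.0, 21.1, and 11.02 CPM against 43.3, 22.5, 8.64, and 2.82 CPM. Each of these genes lay on the same side in all 4 libraries. The early erythroid-like class left out barcodes that also met the stem, megakaryocyte, or basophil definition, while these members were not filtered on them. The stem definition used Meis1, so the Meis1 difference can be partly set by that filter. The part of the filter in the other differences, those of Gata2, Kit, and Ikzf2 among them, was not tested. Median depth differed too, at 13803, 12108, 38231, and 29232 UMIs in these members against 16530.0, 24584, 60036, and 36192 UMIs.

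Mast and basophil genes were higher in members than in early erythroid-like barcodes. Of the mast list, 6 of 8, 6 of 7, 7 of 9, and 6 of 9 genes compared in CBM, TBM, CS, and TS were at least 2-fold higher, with medians of 3.41, 4.16, 3.72, and 2.58. Of the basophil list 8 of 8, 8 of 8, 9 of 10, and 7 of 10 were at least 2-fold higher, with medians of 2.32, 3.38, 2.05, and 2.01. Cpa3, mast cell carboxypeptidase, was higher by log2 ratios of 3.49 (2.96 to 4.06), 4.16 (3.40 to 5.03), 3.72 (3.22 to 4.26), and 2.94 (2.65 to 3.25). Ms4a2, the beta chain of the IgE receptor, was higher by 5.62, 5.79, 4.20, and 3.77. The early erythroid-like class left out barcodes that also met the mast definition, and part of the members met it, so these ratios hold the mast group among the members. Within the early erythroid group of members Cpa3 was at 35.8, 22.4, 3.84, and 3.62 CPM, against 10.9, 6.62, 1.26, and 1.69 CPM in early erythroid-like barcodes.

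Megakaryocyte and stem genes were also higher over early erythroid-like barcodes, a class that left out barcodes meeting the megakaryocyte or stem definition while members meeting them were kept. The megakaryocyte list had 9 of 11, 8 of 10, 6 of 11, and 8 of 11 genes at least 2-fold higher, with medians of 1.33, 2.22, 1.27, and 2.10, and the stem list 6 of 10, 6 of 9, 7 of 11, and 5 of 11, with medians of 1.22, 1.66, 1.06, and 0.97. The megakaryocyte list summed to 377, 654, 99.5, and 58.3 CPM in all members but to 165, 347, 75.6, and 37.1 CPM in members of the early erythroid group, against 133, 109.8, 39.9, and 16.7 CPM in early erythroid-like barcodes. The stem list summed to 301, 300.1, 162, and 154 CPM in that group against 227, 181, 120.4, and 129 CPM. That group was not filtered on the stem or megakaryocyte definition either, so these differences can be partly set by the filter. In all early erythroid-definition barcodes, members among them and without this filter, the megakaryocyte list summed to 457, 1217, 146, and 29.7 CPM. This was above that group of members in CBM, TBM, and CS and below it in TS, so the direction for this list depended on the comparison. The stem list summed to 283, 246, 151, and 138 CPM there, below that group in each library. Itga2b, an integrin of megakaryocytes and early progenitors, was higher by log2 ratios of 1.42, 2.59, 0.93, and 2.28, and Cd34 by 1.30, 2.79, 1.89, and 2.13. Of 32 transcription factor genes, 12, 14, 11, and 13 were at least 2-fold higher, with medians of 0.65, 0.86, 0.57, and 0.63. Runx1 was higher by 1.33, 1.88, 0.98, and 0.90, Fli1 by 1.19, 2.20, 1.53, and 1.93, and the LIM factor Lmo4 by 3.01, 3.43, 1.52, and 1.09. Over stem-like barcodes 5.67%, 6.96%, 4.58%, and 5.93% of all genes compared were at least 2-fold higher and 13.5%, 11.1%, 22.2%, and 20.7% lower. The stem-like class was defined by 6 stem genes, so a lower stem list in members was partly set by the definition, and its medians were -3.08, -1.78, -5.70, and -5.36. The early erythroid list had medians of 3.62, 4.02, 3.37, and 4.46. The stem-like class also left out barcodes that met the early erythroid definition, while members that met it were kept. The medians of the early erythroid list can thus be partly set by that filter.

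The 15 genes named as highest in members over other barcodes all lay above 0 over early erythroid-like barcodes in the 4 libraries. Both contrasts use the same members, and the other barcodes include the early erythroid-like ones. This is therefore a description and no separate check. Sox4 was higher by log2 ratios of 1.74 (1.59 to 1.89), 2.77 (2.54 to 3.001), 1.84 (1.77 to 1.91), and 1.94 (1.89 to 1.99) in CBM, TBM, CS, and TS, F2r by 1.34, 1.77, 1.49, and 1.48, and Muc13 by 1.09, 2.18, 1.43, and 1.51. Optn differed least among those described, by 0.67, 0.91, 0.58, and 0.26. Of the 10 genes named as lowest, 9 differed in sign between libraries in this contrast, and Ccl4 lay above 0 in all 4.

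Most proliferation genes were at least 2-fold lower in members than in early erythroid-like barcodes in TBM, fewer in CBM, and almost none in spleen. Of 15 S phase genes 5, 12, 1, and 0 were at least 2-fold lower in CBM, TBM, CS, and TS, with medians of -0.93, -1.26, -0.31, and -0.25, and of 15 mitosis genes 5, 10, 0, and 0, with medians of -0.93, -1.14, -0.20, and -0.20. Mki67, a marker of cycling cells, differed by log2 ratios of -1.25, -1.70, -0.05, and -0.15, and Rrm2, a ribonucleotide reductase subunit, by -3.43, -3.65, -1.01, and -0.84. Immediate-early and heat shock genes that tissue digestion can switch on were higher in members than in early erythroid-like barcodes. Of these, 9 of 20, 14 of 17, 6 of 20, and 8 of 20 were at least 2-fold higher, with medians of 0.89, 1.77, 0.88, and 0.87. Egr1 was higher by 1.72, 1.78, 1.71, and 1.86. The 4 inflammatory genes Tnf, Cxcl2, Nfkbia, and Nfkbiz had medians of 1.18, 1.16, 1.27, and 1.45, and Cxcl2, a neutrophil chemokine, was lower in CBM at -2.07 (-3.13 to -1.12) and higher in TBM, CS, and TS at 1.43, 1.70, and 1.78. Over all other barcodes, the immediate-early and heat shock list had medians of 0.17, 0.69, -0.21, and 0.04, and the inflammatory genes of -0.44, -0.60, -0.33, and -0.06. Over mast-like barcodes the first list had medians of -1.30, -1.29, -2.13, and -1.51, and the second of -2.64, -3.08, -3.35, and -1.96. The direction of both thus depended on the comparison. The part of handling in these values was not tested.

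Relatives of the 5 genes, on which the rule did not select, differed in direction from each other. The higher level of the 5 genes in members was set by the rule, so nothing is read from a comparison of relatives with it. Slc45a4, the member of the Slc45 family that was compared in each library beside Slc45a3, was higher in members over other barcodes by log2 ratios of 1.76, 1.78, 0.87, and 0.54. Of the gelsolin family, Gsn itself was lower at -1.27, -1.60, -1.77, and -0.20, and Capg lay at -0.04, 0.27, 0.34, and 0.36. The Tribbles gene Trib1 was lower at -1.81, -2.91, -4.06, and -2.33, and St8sia4, which adds polysialic acid, at -1.31, -0.93, -2.46, and -0.75. Their relatives Stk40 and St8sia2 went otherwise. Stk40 lay at 0.22, 0.57, -0.04, and 0.20, with an interval that held 0 in all but TS. St8sia2 was at 1.96 CPM in TBM members against 0.30 CPM, a log2 ratio of 2.71 (0.34 to 4.43) that rests on few UMIs, and at most 0.587 CPM in members of the other libraries. Of the lipoprotein and cholesterol genes, the cholesterol exporter gene Abca1 was higher at 2.43, 2.58, 1.19, and 1.80, while the genes of that list other than Apoe, 16, 15, 16, and 16 of them compared, had medians of 0.04, 0.02, -0.21, and -0.10.

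Between tissues, members of control spleen carried less mast, stem, megakaryocyte, and granulocyte RNA than those of control marrow. Of the genes compared 4.09% were at least 2-fold higher in CS and 16.8% lower, with a median over all genes of -0.22. The early erythroid list had 6 of 13 genes at least 2-fold higher and 1 lower (median 0.67), the S phase list 4 of 15 higher (median 0.68), and the mitosis list 3 of 15 higher (median 0.88). The mast list had 7 of 8 genes lower (median -2.50), the stem list 9 of 11 (-1.94), the megakaryocyte list 9 of 11 (-1.62), and the granulocyte list 9 of 9 (-2.09). Of the basophil list 5 of 10 were lower (-1.44), of the T, NK and innate lymphoid list 2 of 7 (-0.10), and of the monocyte and dendritic list 7 of 11, with 3 higher (-1.33). The 4 hemoglobin genes were higher (1.57), but with the single CS member of over 5% hemoglobin UMIs left out their median was -0.91. Car1 had a log2 ratio of 1.46 and Mki67 of 1.35, Gata2 of -2.29 (-2.36 to -2.22), Lmo4 of -2.72, and Cpa3 of -2.89. The metallothionein gene Mt2 was higher at 4.06, Cxcl2 at 4.68, and Hes1 at 2.22. Since a larger share of CS members met the early erythroid definition, more barcodes meeting it and other levels per barcode enter these ratios together. Depth differed as given with the shares, and depth and free RNA can bear on which barcodes meet the definition.

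Between control and tumor-bearing members of a tissue, a smaller share of genes passed 2-fold than between tissues. In marrow, 3.39% of genes were at least 2-fold higher in TBM than in CBM members and 4.66% lower, and the early erythroid list had a median of 0.01 with 4 of 13 genes at least 2-fold higher and none lower. There 3 of 4 hemoglobin genes were at least 2-fold higher (median 1.40), as were 5 of 10 granulocyte genes (median 0.72). Itga2b was higher by a log2 ratio of 1.70 and Mt2 by 2.59, and Gzmb lower at -1.16. In spleen, 2.56% were higher in TS than in CS members and 6.43% lower. There, 8 of 9 granulocyte genes were at least 2-fold higher (median 1.81), Mpo among them at 1.15, and the 4 hemoglobin genes were lower (median -3.25). Without the 1 CS member that held over 5% hemoglobin UMIs, the hemoglobin median of TS over CS was -0.72, with none of these genes at least 2-fold lower. Gata2 was lower at -0.92 (-0.99 to -0.85), and the early erythroid list had a median of 0.11 with no gene past 2-fold. Each of the 12 granulocyte genes lay below its free RNA level in TS members, Mpo at 90.9 against 545 CPM.

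The share of members also differed between control and tumor-bearing libraries within early erythroid barcodes alone. These barcodes were defined without the 5 genes, but the 5 genes were chosen with earlier results of these data known. The shares, and the levels of the 5 genes in these barcodes, are therefore a description and no separate check. Of marrow barcodes that met the early erythroid definition, members were 48.9% (42.7 to 55.1) of 264 from CBM and 27.3% (19.8 to 35.9) of 128 from TBM. Of those of spleen, members were 66.2% (63.7 to 68.5) of 1554 from CS and 31.7% (30.1 to 33.4) of 2966 from TS. After thinning to 5000 UMIs these shares were 12.9% (9.12 to 17.6), 7.09% (3.29 to 13.03), 9.74% (8.30 to 11.3), and 2.99% (2.40 to 3.67). At this depth the intervals of CBM and TBM overlapped and those of CS and TS did not. CBM and CS, of which CS had the larger share at full depth, overlapped after thinning.

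In these early erythroid barcodes, members and others together, each of the 5 genes was lower in the tumor-bearing library of both tissues, and Apoe the most. Those of CBM held Apoe at 1462 CPM (1430 to 1495) and those of TBM at 257 CPM (240.5 to 275), and the spleen libraries CS and TS at 713 CPM (707 to 719) and 170.4 CPM (168 to 173). The log2 ratios of Apoe were -2.51 (-2.61 to -2.41) between the marrow libraries and -2.06 (-2.09 to -2.04) between the spleen libraries. Thinned to 5000 UMIs, 90.1%, 51.2%, 86.4%, and 48.6% of the barcodes had an Apoe UMI. For Trib2 the log2 ratios were -1.90 in marrow and -0.84 in spleen, for Slc45a3 -1.24 and -0.56, for Scin -0.61 and -1.45, and for St8sia6 -0.48 and -0.52. The thinned share with Trib2 was 43.7%, 14.96%, 20.3%, and 12.9%, with Scin 23.6%, 22.0%, 36.2%, and 15.8%, with Slc45a3 27.0%, 17.3%, 24.1%, and 15.1%, and with St8sia6 30.8%, 29.1%, 20.4%, and 13.7%. Other genes moved between these barcodes too. The early erythroid list summed to 4249, 6401, 5593, and 6505 CPM, the hemoglobin list to 2155, 3765, 191, and 202 CPM, and the megakaryocyte list to 457, 1217, 146, and 29.7 CPM, with no gene of the 3 lists at 0 in any library. The part of these lists in the Apoe difference was not tested.

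Outside the early erythroid barcodes Apoe was lower with tumor in stem-like and megakaryocyte-like barcodes and in free RNA of both tissues, while in mast-like and basophil-like barcodes of spleen the interval of the ratio held 0. For TBM over CBM and TS over CS, the log2 ratios of Apoe were -1.45 and -2.00 in stem-like barcodes, -1.41 and -1.19 in megakaryocyte-like barcodes, -1.41 and 0.08 (-0.10 to 0.26) in mast-like barcodes, and -0.40 and -0.10 (-0.40 to 0.19) in basophil-like barcodes. Free RNA had -0.85 and -1.60. Because free RNA enters every droplet and moved in the same direction, its part in the Apoe ratios of these classes was not tested. In early erythroid barcodes, subtracting 10% of UMIs as free RNA gave -2.60 and -2.13. Tumor and library cannot be told apart.

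**Figure D5:**
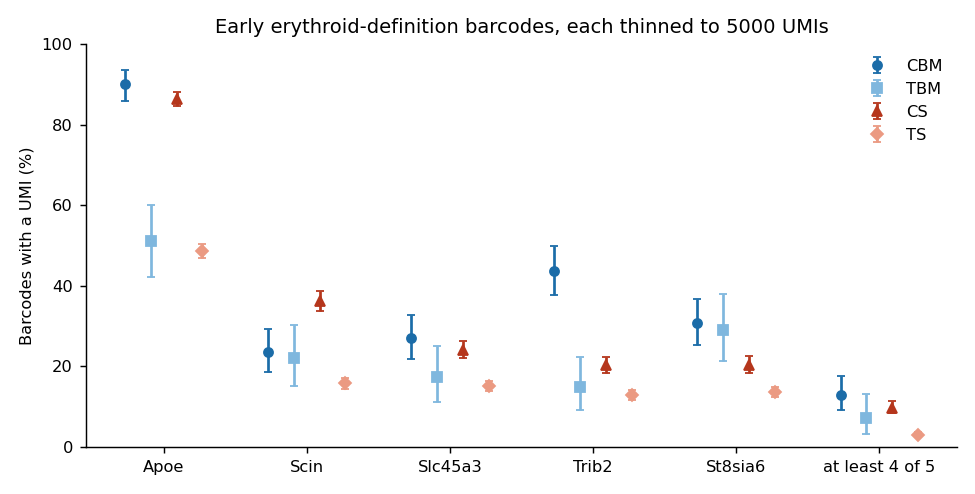
Share of barcodes meeting the early erythroid definition (percent, vertical axis) that had a UMI of each of the 5 genes, and that had at least 4 of them, after thinning to 5000 UMIs; points are single libraries and bars the exact binomial 95% interval. Apoe was detected in 90.1% of CBM and 86.4% of CS barcodes against 51.2% of TBM and 48.6% of TS barcodes.

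Over 24 points outside the members, the 4 libraries by the 5 comparison classes and the barcodes in no class, the summed pattern of the 5 genes was most like that of Kmt2e, with a Spearman rho of 0.82, followed by Map11 at 0.80, Gm36738 at 0.80, Akap8l at 0.79, and Pitpnc1 at 0.79. Most of the summed level was Apoe, so the ranking mainly follows Apoe and gives little on the other 4 genes. Mast-like barcodes of TS had a sum of 1163 CPM with 0 UMIs of Trib2. The points of 1 library share its depth and free RNA, and the rho is given as a description. Between 2 and 9 passing barcodes were shared by each pair of libraries, more than the 1.67 to 3.31 from independent draws in each of 6 pairs. The most shared were 9, against 2.23, for CBM and TBM, and none was a member in both libraries. Scrublet called 56, 61, 50, and 108 passing barcodes of CBM, TBM, CS, and TS as doublets, or 1.60%, 1.41%, 1.55%, and 2.08%. Members were 5, 0, 26, and 44 of these, and they were kept. Of all passing barcodes members were 6.58%, 2.60%, 39.3%, and 24.0%. Members were thus called more often than other barcodes in CBM, CS, and TS, and less often in TBM. The part of doublets in the levels of members was not tested beyond leaving out the highest Scrublet scores.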

How the data were processed

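Spleen and BM cells were run on 10x Genomics 3' chemistry, and the authors aligned reads to mm10 and counted UMIs with Cell Ranger 4.0. The deposited values are raw UMI counts per gene and barcode, for 32285 genes and all barcodes, before selection of cells, removal of ambient RNA, and the authors' later filter of 350 genes. Each group was 1 library, with 101811035 (CBM), 135207987 (TBM), 145301019 (CS), and 176094297 (TS) UMIs. From these counts, members were found by the rule, UMIs were summed per population and library and scaled to CPM, and log2 ratios were taken, with a gene at 0 set to a floor of 3 counts over the population. A gene was compared where both populations together held at least 10 UMIs. Intervals were exact Poisson, Clopper-Pearson, or conditional binomial intervals at 95% and cover counting error only; no test between groups was made. Classes held passing barcodes outside the members that met 1 definition alone, or the basophil and mast definitions together (basophil-like). No doublets were removed. Genes were named from the rule, from the fixed lists, and as the 15 highest and 10 lowest ratios over CBM and CS among genes with a mean of at least 50 CPM. The genes most like the rule genes were ranked by Spearman correlation. The 25 lists, the members, and the rule were chosen with earlier results of these data known. The calculation of ratios was tested on simulated counts. Python 3.11.15, numpy 2.4.6, scipy 1.17.1, pandas 2.3.3, and scanpy 1.11.5 were used.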

Additional observations from a re-analysis of the deposited data

How the results depend on the processing

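No paired analysis was possible because each group was 1 library. Shares of members depended on the limits. With all 5 genes required the shares were 2.46% (CBM), 0.645% (TBM), 18.5% (CS), and 7.29% (TS), with at least 3 genes 11.04%, 5.62%, 51.6%, and 42.7%, with at least 2 UMIs per gene 2.55%, 0.783%, 20.7%, and 6.71%, with 350 genes as the limit 4.02%, 0.986%, 17.7%, and 18.4%, which turned the order of CS and TS, and with 2000 genes 8.12%, 3.12%, 44.0%, and 25.04%. Thinned to 5000 UMIs, without shallower barcodes, they were 2.62%, 1.11%, 7.33%, and 4.52%. Counts of genes past 2-fold over other barcodes changed with the minimum of UMIs per gene. At 50 UMIs they were 839 higher in CBM (1307 in the text's setting), 162 higher (360) and 1888 lower (3064) in CS, and 135 higher (368) and 1222 lower (1907) in TS, and at 1 UMI 655 higher in CS and 892 in TS, since other genes were compared. With other barcodes between the 10th and 90th percentile of the members' UMIs, 800 were higher in CBM and 645 in TBM (2019). With 1 UMI per class marker, 1424 genes were higher over stem-like barcodes in TBM (868) and 709 lower over early erythroid-like barcodes in CS (325). Among members with all 5 genes, 825 were lower in TBM than in CBM (514). The log2 ratio of Apoe in early erythroid barcodes was -2.03 for TBM over CBM and -2.00 for TS over CS with 1 UMI per marker, and -2.13 for TS over CS with 10% free RNA subtracted. Without the 1 CS member over 5% hemoglobin UMIs, the median log2 ratio of the hemoglobin genes in members was -0.91 in place of 1.57 for CS over CBM, a reversal, -0.72 in place of -3.25 for TS over CS, and -2.37 in place of 0.12 for CS members over early erythroid-like barcodes. These Apoe and hemoglobin alternatives were chosen after seeing the data. Of the other values that answer a comparison, 112 stayed within their limits and 38 did not, those given here. Of the values of single genes and lists, 292 stayed, 292 moved and 1 reversed. The log2 ratios of the 25 named genes, chosen as extreme, kept their sign in all 500 recomputed values, but shifted by up to 9.42 with free RNA subtracted, 3.76 with others of like depth, and 2.86 without the highest Scrublet scores. Depth limits detection of each gene of the rule, and with 1 library a group, differences between libraries have no replicate check.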
